A study of Mus musculus with 16 samples.

Results

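The comparison described here sets CD44-positive alveolar type 2 (AT2) cells of lungs with a mutant surfactant protein C gene against CD44-negative AT2 cells of control lungs, the groups at opposite ends of the study, and asks where the remaining groups fall between them. Its members were chosen by column name: 4 libraries named OG with CD44+ and 4 libraries named R26 with CD44-, 8 of the 16 libraries of the series. The other 8 are 4 OG CD44- and 4 R26 CD44+ libraries. Each library is bulk RNA sequencing of cells sorted from mouse lung.

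The gate kept Epcam-positive, CD200-high cells that lacked surface CD104, CD45 and CD31, and these were then divided by CD44. The sample titles and the genotype label give SP-C WT or SP-C Mutant for 4 numbers each, and the column names carry the same 4 animal numbers in both sorts of a prefix. The treatment label reads OG TMX on all 16 samples, so whatever it stands for was shared by both genotypes and both sorts. The labels give no age, strain, driver or description of the mutant allele, and they do not say which genotype the column prefixes R26 and OG stand for. Reading R26 as the control and OG as the mutant is an inference, and if it is wrong every OG against R26 difference below has the opposite sign for genotype. The groups are therefore called by their column names. Nothing beyond the numbered titles says that the libraries of a group are separate animals, and p-values measure only the spread between these libraries. The OG CD44+ and R26 CD44- libraries share no animal, so no pairing enters their comparison.

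AT2 cells line the alveoli, make and recycle surfactant, and act as the progenitors of the thin alveolar type 1 (AT1) cells that carry out gas exchange. On the way between these states, and in injured or fibrotic lungs, alveolar epithelial cells can pass through a transitional state with high keratin 8, tight junction, basement membrane and p53 target genes and low surfactant genes. CD44 is a cell surface receptor for hyaluronan. Mutant surfactant protein C can misfold or be mislocalised, and stress in the endoplasmic reticulum of AT2 cells is one known outcome.

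Total counts were 13395443 to 16341755 in R26 CD44- libraries, 11237147 to 13596733 in OG CD44+, 9022471 to 11024351 in R26 CD44+ and 11489364 to 21363816 in OG CD44-. Of the 27179 identifiers, 15516 genes were tested with edgeR's quasi-likelihood test over all 16 libraries, and a gene was called at a Benjamini-Hochberg adjusted p under 0.05. Levels are CPM, a gene's counts scaled to a common library total, differences are log2 fold changes ± SE for OG CD44+ minus R26 CD44-, and n = 4 libraries a group throughout. An identifier with no symbol took 4.98 to 5.83% of the counts in R26 CD44- and 10.4 to 11.8% in OG CD44+. The markers that define AT2 cells (Sftpc, Sftpb, Abca3, Lamp3, Slc34a2 and Napsa) were present in all 4 groups.

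The groups lay in separate places along the main axis of variation. The first principal component took 56.6% of the variance and ran from R26 CD44- through R26 CD44+ and OG CD44- to OG CD44+. When each library was projected on the line from the mean of R26 CD44- (0) to the mean of OG CD44+ (1), R26 CD44+ libraries lay at 0.386 to 0.494 and OG CD44- libraries at 0.644 to 0.656. The R26 CD44- libraries spread over -0.019 to 0.014 and the OG CD44+ libraries over 0.985 to 1.04. Each of the 4 groups kept to its own stretch of the line. Without R26 animal 1, the other 3 R26 CD44+ libraries lay at 0.386 to 0.414. On the second component, which took 24.7%, the library of OG animal 3 CD44+ was at -29.5 against -8.60 to -9.26 for the other 3 of its group, and R26 animal 1 CD44+ stood apart from its group at -72.8 against -57.7 to -61.0.

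**Figure D1:**
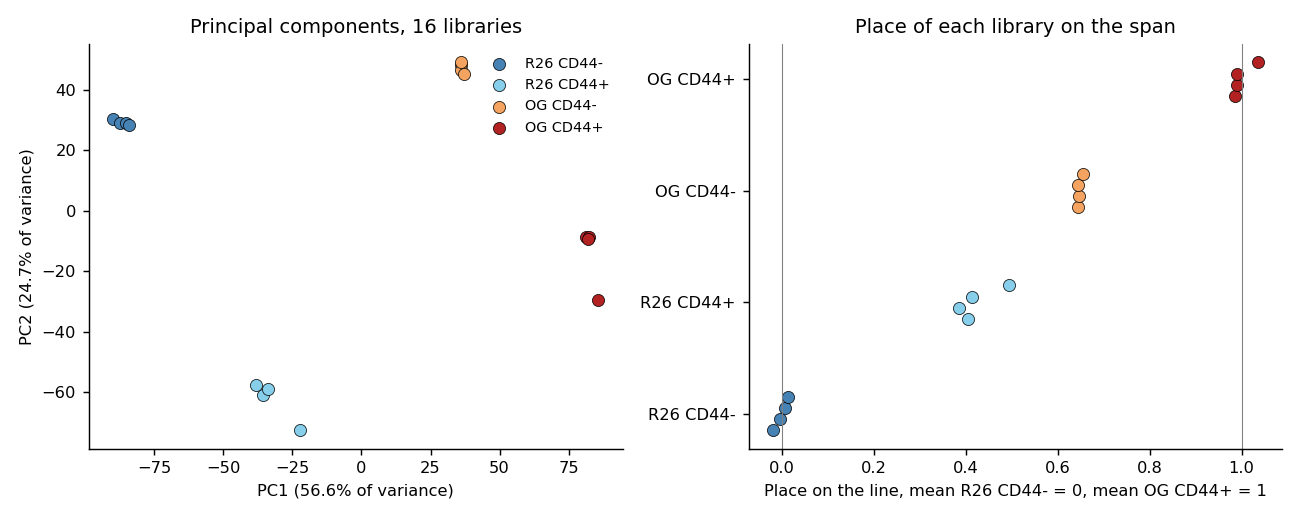
Left, the 16 libraries on the first 2 principal components of log2 CPM, coloured by group. Right, the place of each library on the line joining the mean R26 CD44- library (0) and the mean OG CD44+ library (1); the R26 CD44+ libraries sit between 0.386 and 0.494 and the OG CD44- libraries between 0.644 and 0.656.

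The ends differed at most genes tested. Of 15516 genes, 11606 (74.8%) were called: 6367 (41.0%) rose from R26 CD44- to OG CD44+ cells and 5239 (33.8%) fell. At least a 2-fold change was called for 5188 genes (33.4%), 3108 higher (20.0%) and 2080 lower (13.4%), and the 8 libraries did not overlap at 10924 genes (70.4%). The median log2 fold change over all genes tested was 0.07. Without both libraries of OG animal 3, the calls were 6307 upward and 5040 downward. These shares are the background against which the counts in each gene list below are to be read. The lists were chosen with earlier results of these data known, so their counts are a description and not a test.

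AT2 identity and surfactant genes were lower in OG CD44+ cells. Of the 28 tested, 26 fell, 24 of them at least 2-fold, 1 rose and 1 (Pgc, log2 fold change -0.14) was not called, with a median log2 fold change of -1.73. Sftpc, the surfactant protein C gene itself (chr14:70520941-70524081, build GRCm38 as for all positions below), was at 74685, 71101, 86308 and 86273 CPM in the 4 R26 CD44- libraries and at 7055, 7173, 6870 and 5688 in the 4 OG CD44+ libraries. The groups did not overlap, and every OG CD44+ library held less Sftpc than any other library of the series. The log2 fold change was -3.57 ± 0.13 (adjusted p = 2.62e-16), which is 11.9-fold lower. No allele is described, so the Sftpc level is no check of genotype. In bulk samples, fewer cells of a type and less RNA per cell cannot be told apart, here or for the genes that follow.

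The middle groups fell far apart on Sftpc. R26 CD44+ libraries held 47309 to 72715 CPM, close to the R26 CD44- end, and OG CD44- libraries 11102 to 12022, near the OG CD44+ end. A gene's position is used below for this: the fitted log2 level of a middle group placed between R26 CD44- (0) and OG CD44+ (1). Position describes level only, and no order of the groups in time was measured. Sftpc was at position 0.15 in R26 CD44+ cells and 0.78 in OG CD44- cells. OG CD44- cells were lower than R26 CD44+ cells by a test that compares no library of either end, although the end libraries enter its shared scaling and estimate of spread (log2 fold change -2.22 ± 0.12, adjusted p = 7.37e-13).

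Other surfactant genes fell less. Lamp3, a protein of the lamellar body in which surfactant is stored (chr16:19653381-19706365), was at 4884, 4739, 4559 and 4533 CPM in R26 CD44- and 816, 805, 889.8 and 791 in OG CD44+ libraries (log2 fold change -2.50 ± 0.06, adjusted p = 6.21e-21). Its ranges of 3050 to 3678 in R26 CD44+ and 2071 to 2230 in OG CD44- lay between the ends without touching either. The log2 fold change was -1.63 for surfactant protein B gene Sftpb, -1.60 for the lipid pump Abca3, -2.30 for the phosphate carrier Slc34a2 and -1.25 for the protease Napsa. The complement gene Hc (-3.88 ± 0.07) and Ppp1r14c (-2.79 ± 0.05), a phosphatase inhibitor, had among the smallest adjusted p-values of the list.

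Lyz2 encodes a lysozyme that mouse AT2 cells make (chr10:117277541-117282272). Its 4 R26 CD44- libraries were at 24589, 22945, 27962 and 25010 CPM and its 4 OG CD44+ libraries at 1043, 1084, 1086 and 1110 (log2 fold change -4.54 ± 0.11, adjusted p = 1.57e-20). The OG CD44+ libraries were low and close together, and OG CD44- libraries stood at 4915 to 5628, position 0.49. The related gene Lyz1 fell by 6.18 on the log2 scale. Lyz1 and Lyz2 are near copies and the division of reads between them is uncertain.

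Ctsh, a lysosomal cathepsin that helps process surfactant proteins (chr9:90054267-90076095), was the AT2 list member that rose. It was at 836, 724, 850.1 and 776 CPM in R26 CD44- and 2473, 2490, 2601 and 2159 in OG CD44+ libraries (log2 fold change 1.61 ± 0.06, adjusted p = 4.8e-17). R26 CD44+ libraries, at 572 to 638 CPM, were called below the R26 CD44- end, while OG CD44- libraries were at 1739 to 1884. In OG CD44- cells Ctsh was 1.58 ± 0.06 above R26 CD44+ cells on the log2 scale (adjusted p = 1.5e-16). For the 25 AT2 list members changed at least 2-fold, the median position was 0.25 in R26 CD44+ and 0.56 in OG CD44- cells. Between those middle groups 22 AT2 genes were lower and 2 higher in OG CD44- cells, against 36.6% lower and 35.2% higher among all genes tested.

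**Figure D2:**
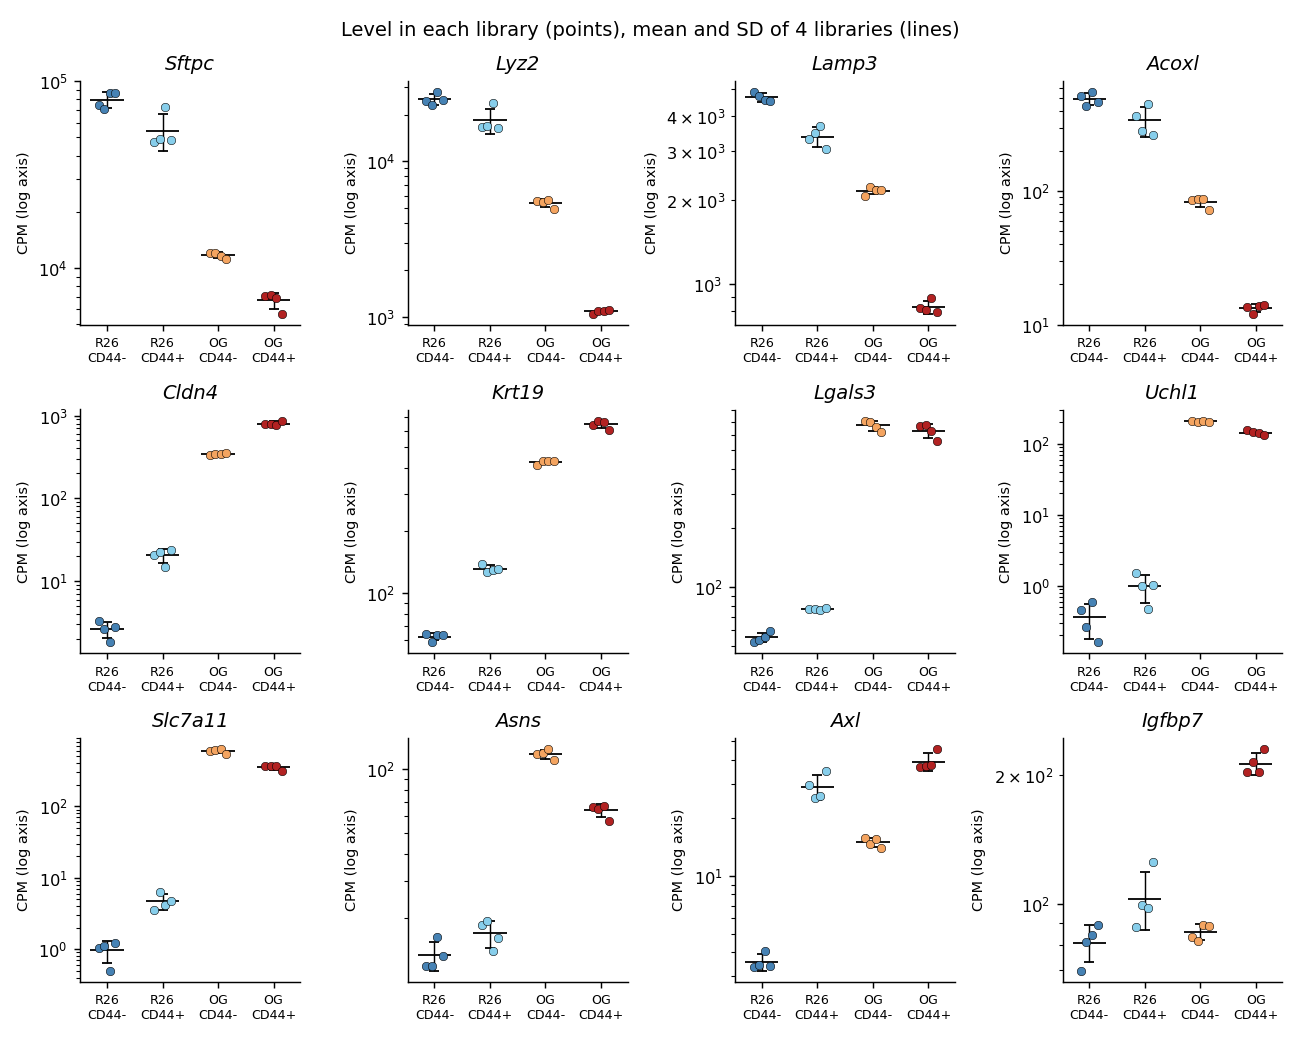
CPM on log axes for 12 genes in each of the 16 libraries (points), with the mean and SD of the 4 libraries of a group (lines). The first row holds genes that fell, with OG CD44+ libraries lowest, and in Slc7a11 and Asns the OG CD44- libraries sit above the OG CD44+ libraries.

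Genes of the transitional, Krt8-high state moved the other way. All 33 tested rose, 30 of them at least 2-fold, with a median log2 fold change of 3.12. Krt8, the keratin the state is named after, was at 121, 129.9, 115 and 124 CPM in R26 CD44- libraries and 456, 434, 415 and 427 in OG CD44+ (log2 fold change 1.82 ± 0.07, adjusted p = 1e-17). Cldn4, a tight junction claudin (chr5:134945123-134946934), was at 3.29, 2.63, 1.83 and 2.82 CPM and 781, 793, 760.2 and 869, a 298-fold difference (log2 8.22 ± 0.12, adjusted p = 7.36e-22). R26 CD44+ libraries, at 15.0 to 23.5 CPM, and OG CD44- libraries, at 336 to 352, formed separate steps between the ends.

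A transitional gene stood at the level of OG CD44+ cells in OG CD44- cells. Lgals3, which encodes the galactoside-binding lectin galectin-3, was at 52.2, 53.6, 55.2 and 59.3 CPM in R26 CD44- libraries, 76.1 to 77.6 in R26 CD44+, 618 to 707 in OG CD44- and 558 to 671 in OG CD44+. The 2 OG groups overlapped and were not told apart by the test, and the 2 R26 groups sat far below. The epithelial checkpoint gene Sfn rose by 3.12, Krt19 by 3.38 ± 0.05, the fibronectin gene Fn1 by 6.09, and Ndrg1 by 3.52 ± 0.06. Krt17, a basal and stress keratin, had 0 counts over the R26 CD44- libraries and 401 over the OG CD44+ libraries, which is at least 143-fold higher against a floor of 3 counts over the group. Over the 30 list members changed at least 2-fold the median position was 0.82 in OG CD44- and 0.22 in R26 CD44+ cells, and 32 of the 33 were higher in OG CD44- than in R26 CD44+ cells.

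Junction, adhesion and cytoskeleton genes rose as well: 31 of 32 tested were higher, 0 lower and 1 (Cldn3) not called, with a median of 1.18. For the 19 changed at least 2-fold, the median positions were 0.76 in OG CD44- and 0.25 in R26 CD44+ cells. Plaur, the receptor of the protease urokinase (chr7:24460937-24475970), was at 1.03, 0.724, 1.25 and 1.61 CPM in R26 CD44- libraries and 89.2, 82.7, 83.7 and 81.1 in OG CD44+ (log2 fold change 6.21 ± 0.13, adjusted p = 2.58e-22). It stood between the ends in both middle groups, at 5.34 to 8.76 CPM in R26 CD44+ and 65.6 to 71.7 in OG CD44- libraries. The integrin subunits Itga2 and Itga3, which bind collagen and laminin, rose 257-fold and 4.59-fold.

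AT1 markers rose to a smaller extent. Of 22 tested, 19 were higher, 0 lower and 3 (Igfbp2, Vegfa and Limch1) not called, with a median of 1.34. Without both libraries of OG animal 3 the counts were 19 and 1. Pdpn, the membrane glycoprotein podoplanin of AT1 cells (chr4:143267409-143299564), was at 13.1, 14.7, 12.8 and 13.8 CPM in R26 CD44- and 129, 139, 133 and 123 in OG CD44+ libraries (log2 fold change 3.27 ± 0.09, adjusted p = 1.21e-19). Both middle groups lay past the midpoint towards OG CD44+, at position 0.60 in R26 CD44+ and 0.91 in OG CD44- cells. Gprc5a, an epithelial receptor, was at 518, 499.6, 545 and 556 CPM and 1452, 1459, 1367 and 1314 at the ends (log2 fold change 1.40 ± 0.05, adjusted p = 8.35e-18), but R26 CD44+ libraries, at 496 to 547, overlapped R26 CD44-. The AT1 receptor gene Ager and the AT1 regulator Rtkn2, which define mature AT1 cells, rose by 0.71 ± 0.06 and 0.93 ± 0.11, less than 2-fold each.

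In the list of the unfolded protein response and the integrated stress response, 15 of 30 were higher and 11 lower, beside 41.0% and 33.8% of all genes tested, with a median of 0.21, and only 5 changed by at least 2-fold, all of them upward. Those 5 were Chac1, Psat1, Asns, Trib3 and Sdf2l1. The first 4 are known targets of the transcription factor ATF4, and Sdf2l1 is an endoplasmic reticulum chaperone partner. Of the classic endoplasmic reticulum genes, the chaperone Hspa5 rose by 0.64 ± 0.06 (adjusted p = 0.147 against a 1.5-fold minimum), and the transcription factor gene Xbp1 fell (-0.67 ± 0.05), as did the degradation factor gene Herpud1 (-0.95 ± 0.05). Between the middle groups, 22 genes of the list were higher and 6 lower in OG CD44- than in R26 CD44+ cells. Over the 5 genes changed at least 2-fold, the median position was 1.32 in OG CD44-, outside the span, and 0.16 in R26 CD44+ cells.

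Asns, the asparagine synthetase gene (chr6:7675165-7693209), was at 12.01, 11.97, 16.32 and 13.36 CPM in R26 CD44- libraries and 66.6, 65.1, 67.0 and 57.4 in OG CD44+ (log2 fold change 2.26 ± 0.09, adjusted p = 1.95e-16). OG CD44- libraries held 118, 118, 124 and 109.7 CPM, above all 4 OG CD44+ libraries, and R26 CD44+ libraries 14.0 to 19.5. Trib3, a pseudokinase, was at 13.05, 9.475, 14.07 and 11.02 CPM in R26 CD44-, 57.7, 58.2, 47.5 and 49.0 in OG CD44+ and 106, 106, 117 and 104 in OG CD44- libraries. For both genes OG CD44- cells were called beyond the OG CD44+ end, at positions 1.39 and 1.48. Slc7a11, the cystine carrier that feeds glutathione synthesis (chr3:50364936-50499087), is on no list but was among the largest increases. It was at 1.03, 1.12, 0.500 and 1.21 CPM in R26 CD44- libraries, 372, 365, 372 and 315 in OG CD44+ and 603, 617, 626 and 542 in OG CD44-. Its log2 fold change between the ends was 8.49 ± 0.13 (adjusted p = 8.07e-22), and between the middle groups 6.98 ± 0.11 (adjusted p = 4.23e-21).

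ATF4 binds, with C/EBP partners, a composite element written here as TGATGNAA. It was searched on both strands (TTNCATCA on the other) in the 250 bases before the start of each gene, from RefSeq promoter sequences of build GRCm38.p6, which give 1 start site a gene. The windows of Slc7a11 (chr3:50443614-50443863, minus strand), Asns (chr6:7693210-7693459, minus strand) and Chac1 (chr2:119350992-119351241, plus strand) are shown because these genes share the pattern just given, with matches in capitals. They were chosen after their values were seen, and the Slc7a11 start used by RefSeq's table lies inside the annotated span of that gene.

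Slc7a11: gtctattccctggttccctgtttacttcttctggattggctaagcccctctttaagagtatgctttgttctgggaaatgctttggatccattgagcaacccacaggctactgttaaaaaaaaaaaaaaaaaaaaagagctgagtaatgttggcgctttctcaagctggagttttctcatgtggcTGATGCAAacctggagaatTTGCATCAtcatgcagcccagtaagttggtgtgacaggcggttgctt
Asns: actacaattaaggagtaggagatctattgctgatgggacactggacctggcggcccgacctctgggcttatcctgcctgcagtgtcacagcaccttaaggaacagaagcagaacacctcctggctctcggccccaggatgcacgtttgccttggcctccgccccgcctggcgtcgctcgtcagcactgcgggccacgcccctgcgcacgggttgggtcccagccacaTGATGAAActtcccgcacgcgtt
Chac1: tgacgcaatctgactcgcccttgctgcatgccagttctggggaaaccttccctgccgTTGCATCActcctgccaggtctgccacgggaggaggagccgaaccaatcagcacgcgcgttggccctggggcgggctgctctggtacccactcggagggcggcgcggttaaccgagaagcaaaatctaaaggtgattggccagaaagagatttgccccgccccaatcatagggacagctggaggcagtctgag

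Slc7a11 held 2 matches, beginning 66 and 47 bases before the start, Asns 1 at 23 bases and Chac1 1 at 193 bases, and the Trib3 window held 0. The element was in 3.45% of the 32851 windows of all genes, in 2.44% of the 11498 tested genes with a window, in 2.60% of genes at least 2-fold higher and in 2.90% of genes at least 2-fold lower. A match is a stretch of letters and shows no binding.

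Lipid synthesis genes fell. Of 30 tested, 26 were lower, 18 of them at least 2-fold, and 2 were higher, with a median of -1.25. Gpam, which starts glycerolipid synthesis by acylating glycerol phosphate (chr19:55067635-55127319), was at 361, 347, 370.5 and 366 CPM in R26 CD44- libraries and 37.1, 38.5, 35.0 and 37.6 in OG CD44+ (log2 fold change -3.29 ± 0.07, adjusted p = 2.02e-22). Acly, which makes the acetyl-CoA used for fatty acids and sterols, was at 997, 986, 1060 and 1019 and 277, 275, 274 and 274 CPM (log2 fold change -1.89 ± 0.06, adjusted p = 9.43e-19). In both genes the 4 groups stood in the order R26 CD44-, R26 CD44+, OG CD44-, OG CD44+ in means, with Gpam at position 0.07 and 0.72 in the middle groups. Insig1 and Idi1 fell by 2.63 and 2.51 on the log2 scale. The 2 members that rose were the elongase Elovl6 (2.74 ± 0.39) and the adipogenic factor Pparg (1.32 ± 0.23), both at low levels. The median positions of list members changed at least 2-fold were 0.78 in OG CD44- and 0.23 in R26 CD44+ cells.

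TGF-beta ligands, latent TGF-beta activators and other profibrotic ligands rose: 21 of 25 tested were higher and 0 lower, 16 by at least 2-fold, with a median of 2.13. Fibroblast markers rose in the same libraries, as given below, and their part in this result was not tested. Without both libraries of OG animal 3 the counts were 21 and 1. Tgfb2, a TGF-beta ligand (chr1:186622787-186709697), was at 2.78, 2.83, 2.83 and 2.82 CPM in R26 CD44- libraries and 61.4, 63.7, 65.4 and 61.1 in OG CD44+ (log2 fold change 4.48 ± 0.13, adjusted p = 3.02e-19). Its middle groups were at 14.8 to 21.4 in R26 CD44+ and 25.6 to 37.8 in OG CD44-, at positions 0.61 and 0.76. Pdgfb, a growth factor for fibroblasts and mural cells, was at 17.4, 16.6, 20.4 and 18.7 and 166, 171, 153 and 171 CPM at the ends (log2 fold change 3.18 ± 0.08, adjusted p = 1.69e-20). Here R26 CD44+ libraries, at 25.9 to 35.3, stayed closer to the R26 CD44- end. The integrin subunits Itgb6 (4.20) and Itgav (2.13 ± 0.07), which together activate latent TGF-beta, and osteopontin Spp1 (7.98 ± 0.16) were also higher. Between the middle groups the list showed no lean, with 8 genes higher and 9 lower in OG CD44- than in R26 CD44+ cells.

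Of 9 genes tested in the list of ligands, receptors and the inhibitor Errfi1, 6 were higher and 2 (Egfr and Errfi1) lower, with a median of 0.21. Ereg, the ligand epiregulin, was at 0.258, 0.263, 0.416 and 0.644 CPM in R26 CD44- libraries and 37.3, 36.3, 44.0 and 36.7 in OG CD44+ (log2 fold change 6.63 ± 0.19, adjusted p = 9.12e-20), with OG CD44- libraries at 15.6 to 17.6. The ligands Hbegf and Areg rose by 1.03 ± 0.08 and 0.59 ± 0.10, and Areg was not called against a 1.5-fold minimum (adjusted p = 0.463). Errfi1, a feedback inhibitor of the receptor, was at 1966, 1796, 1749 and 1707 CPM in R26 CD44- and 371, 380.2, 395 and 342 in OG CD44+ libraries (log2 fold change -2.28 ± 0.07, adjusted p = 2.67e-18). The receptor gene Egfr fell by 0.76, and OG CD44- cells, at 12.2 to 12.8 CPM, were lower than OG CD44+ cells at 14.1 to 19.5.

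YAP and TAZ targets divided into 14 higher and 6 lower of 20 tested, with a median of 1.19. Axl, a receptor kinase, was at 3.36, 3.42, 4.08 and 3.38 CPM in R26 CD44- libraries and 36.6, 37.1, 37.5 and 45.5 in OG CD44+ (log2 fold change 3.46 ± 0.12, adjusted p = 4.07e-18). Axl was higher in R26 CD44+ (25.4 to 34.9 CPM) than in OG CD44- libraries (14.0 to 15.7), by 0.96 on the log2 scale (adjusted p = 7.61e-09). The scaffold gene Ajuba (2.80 ± 0.06) and tissue factor F3 (3.22 ± 0.10) had the other order, with positions of 0.72 and 0.69 in OG CD44- against 0.17 and 0.21 in R26 CD44+ cells. The secreted target Ccn2 rose by 3.89 and the nucleotidase gene Nt5e by 4.77.

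Of 24 p53 targets and senescence genes, 21 rose, 2 (Btg2 and Rrm2b) fell and 1 (Bbc3) was not called, with a median of 1.46. Ccng1, a cyclin induced by p53 (chr11:40748552-40755309), was at 88.2, 89.9, 94.9 and 84.2 CPM in R26 CD44- libraries and 426, 444, 469 and 445 in OG CD44+ (log2 fold change 2.32 ± 0.05, adjusted p = 5.67e-22). OG CD44- libraries, at 401 to 419 CPM, were near the OG CD44+ end and R26 CD44+ libraries, at 92.1 to 103, near the R26 CD44- end. The cell cycle inhibitors Cdkn1a (1.84 ± 0.06) and Cdkn2b (3.42 ± 0.11), the death receptor Eda2r (5.33), Phlda3 (3.99 ± 0.09), an Akt inhibitor, and the apoptosis gene Bax (1.74) rose. Members of their list changed at least 2-fold had median positions of 0.89 in OG CD44- and 0.24 in R26 CD44+ cells.

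Cell cycle genes were higher in OG CD44+ cells, 22 of 30 against 3 lower (Bub1, Bub1b and Pcna), with a median of 1.35. Mki67, the proliferation antigen Ki-67, chosen after its values were seen, was at 8.72, 20.3, 8.41 and 17.7 CPM in R26 CD44- and 52.1, 44.0, 49.7 and 53.2 in OG CD44+ libraries (log2 fold change 1.84 ± 0.37, adjusted p = 0.00053). R26 CD44+ libraries were the highest in mean, at 39.0, 105, 42.0 and 92.1 CPM, and OG CD44- libraries held 34.5, 35.1, 29.0 and 42.6. Mki67 in OG CD44- against R26 CD44+ cells was -0.98 ± 0.33 (adjusted p = 0.017), a call lost without R26 animal 7 CD44+ (-0.74, adjusted p = 0.0581). In this list 21 genes were lower and 2 higher in OG CD44- than in R26 CD44+ cells. Over members changed at least 2-fold, the median position of R26 CD44+ cells was 1.33, outside the span on the OG CD44+ side. The cyclins Ccnd1 (1.33 ± 0.06) and Ccnd2 (1.36 ± 0.10) also rose, with R26 CD44+ cells at positions -0.08 and 0.27.

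Of the 26 genes in the joint list of interferon-induced and MHC genes, 16 rose and 6 fell, with a median of 0.45. The antiviral genes Rsad2 (3.99 ± 0.20) and Ifit2 (2.64) and the GTPase Gbp2 (2.14 ± 0.14) rose, while the class II genes H2-Aa, H2-Ab1 and Cd74 and their activator Ciita (-1.61 ± 0.09) fell, with Irf1 and Stat2. H2-Ab1, a class II chain that AT2 cells are known to make, was at 577, 724, 696 and 742 CPM in R26 CD44- libraries and 260.1, 265, 258 and 245 in OG CD44+ (log2 fold change -1.41 ± 0.07, adjusted p = 3.1e-14). The middle groups lay between, at 474 to 593 in R26 CD44+ and 349.5 to 363 in OG CD44- libraries.

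Chemokines and NF-kappaB genes gave 13 higher and 7 lower of 24, with a median of 0.49. Il33, an alarmin stored in AT2 nuclei, was at 473, 525, 469 and 544 CPM in R26 CD44- libraries and 111, 111, 112 and 134 in OG CD44+ (log2 fold change -2.10 ± 0.07, adjusted p = 1.54e-18). Most of that difference lay between the OG groups, since OG CD44- libraries held 324 to 340.5 CPM. The lung chemokine Cxcl15, an AT2 product, fell by 2.70, and the acute phase gene Saa3 rose by 5.22. In this list 17 genes were lower and 3 higher in OG CD44- than in R26 CD44+ cells.

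**Figure D3:**
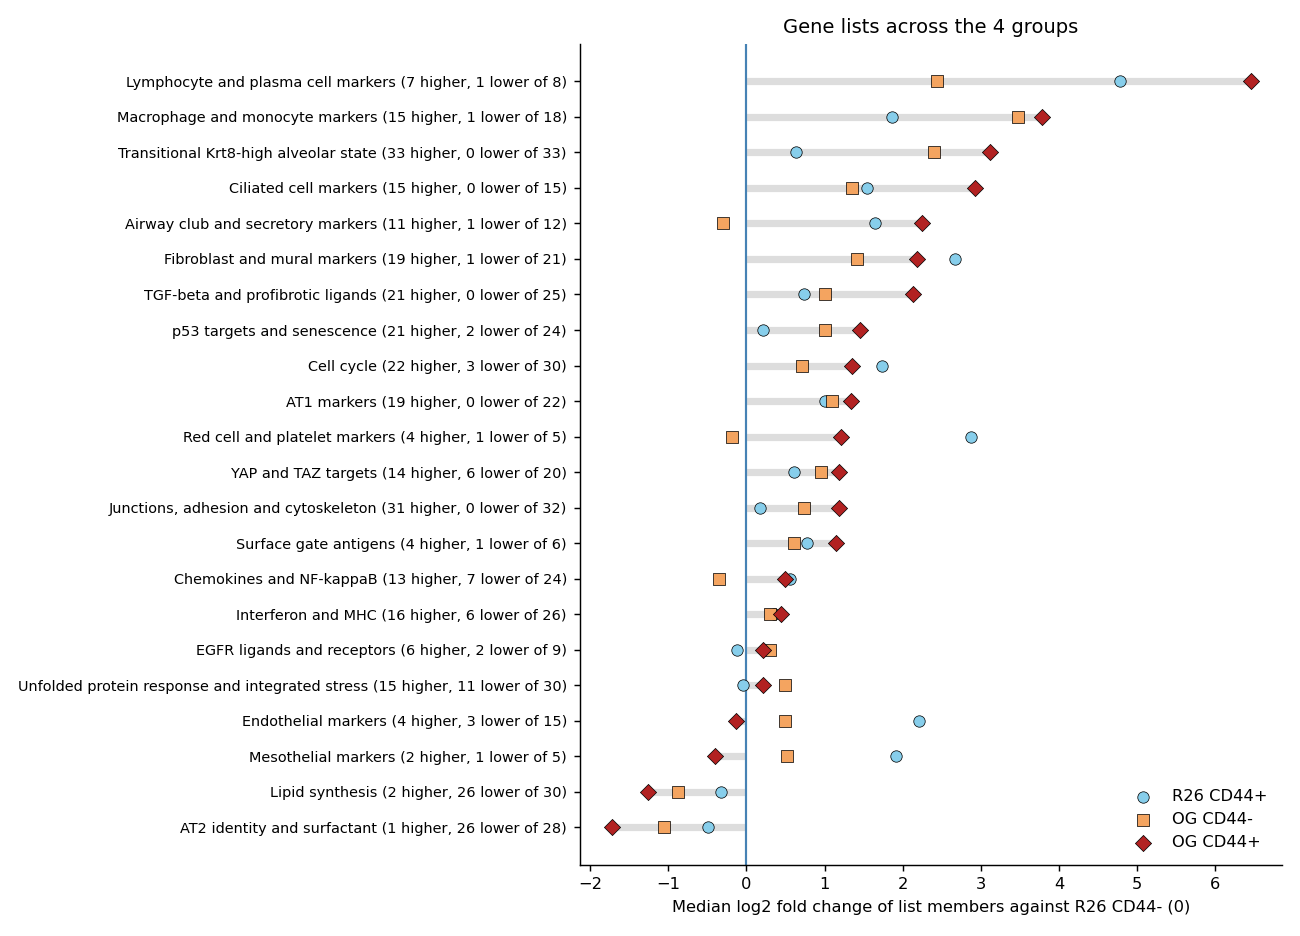
Median log2 fold change of the tested members of each gene list in R26 CD44+, OG CD44- and OG CD44+ cells against R26 CD44- cells (vertical line at 0), with the counts called between the ends. OG CD44- cells lie nearer OG CD44+ than R26 CD44+ cells do for the AT2, lipid, transitional, junction and p53 lists, and the reverse holds for club, fibroblast and lymphocyte markers.

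The sorting antigens checked the gates at the RNA level. Cd44 (chr2:102811141-102901669) was at 334, 330.0, 324 and 326 CPM in R26 CD44- and 897, 906, 947 and 905 in OG CD44+ libraries (log2 fold change 1.48 ± 0.08, adjusted p = 2.1e-13). OG CD44- libraries, sorted as negative, held 538 to 593 CPM, and R26 CD44+ libraries, sorted as positive, held 387 to 560.0, so the ranges of the middle groups overlapped in Cd44 RNA although the gate set them apart. The test between them called Cd44 higher in the OG group sorted as negative (log2 fold change 0.26 ± 0.08, adjusted p = 0.00422). Among antigens the sort asked for, Epcam was at 126 to 135 CPM in R26 CD44- and 224 to 239 in OG CD44+ libraries, a rise of 0.83 ± 0.05. Cd200 was at 168 to 188 and 75.6 to 81.0 CPM, a change of -1.19 ± 0.05.

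Antigens that the sort excluded were not all low. Itgb4, which encodes CD104, was at 6.33, 6.71, 7.25 and 6.84 CPM in R26 CD44- and 99.8, 97.2, 95.1 and 86.8 in OG CD44+ libraries (log2 fold change 3.81 ± 0.13, adjusted p = 1.51e-16). Ptprc, which encodes CD45, was at 0.129, 0.197, 0.167 and 0.161 and 3.95, 4.15, 3.84 and 8.63 CPM (log2 fold change 4.89 ± 0.55, adjusted p = 1.42e-07), with OG animal 3 highest. Pecam1, which encodes CD31, was at 4.00, 2.37, 4.25 and 4.91 and 1.78, 2.66, 1.89 and 7.89 CPM. Its groups overlapped through OG animal 3, and it was not called (-0.13 ± 0.39, adjusted p = 0.768), but without that library it was called lower (-0.87, adjusted p = 0.00165). In the middle groups, Itgb4 was at 9.38 to 19.1 CPM in R26 CD44+ and 23.3 to 27.5 in OG CD44- libraries. Ptprc was at 4.76 to 15.4 CPM in R26 CD44+, not told from OG CD44+, and 0.717 to 1.42 in OG CD44- libraries. Pecam1 was highest in R26 CD44+ libraries, at 15.6 to 19.9 CPM, with 3.84 to 5.29 in OG CD44-. Over all genes tested, the step from CD44- to CD44+ differed between OG and R26 at 24.7% by the interaction term of the same model. That model has no animal term, so the animal numbers shared by both sorts of a prefix were not used.

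Genes that mark other cell types also differed between the ends, and their part in the results above was not tested. Ciliated cell markers were higher for 15 of 15 tested (median 2.93) and club and secretory markers for 11 of 12 (median 2.25), the exception being Cbr2, which mouse AT2 cells share. Fibroblast and mural markers were higher for 19 of 21 (median 2.18), macrophage and monocyte markers for 15 of 18 (median 3.79), and lymphocyte and plasma cell markers for 7 of 8 (median 6.45, or 5.17 with the gene at 0 in R26 CD44- set at its floor). The macrophage list member that fell was Lyz2, and 2 members had 0 counts in R26 CD44- libraries. Summed without Lyz2 and Ptprc, that list rose less than its median, from a median of 84.6 CPM in R26 CD44- to 134 in OG CD44+ libraries. Endothelial markers were mixed, with 4 higher and 3 lower of 15 (median -0.13), and without both libraries of OG animal 3 the split was 3 and 7. Mesothelial markers gave 2 higher and 1 lower of 5 (median -0.40, which turned to 0.06 without OG animal 3 CD44+). Their summed level without Krt19, which the transitional list also holds, was 12.5 to 13.4 CPM in R26 CD44- and 100 to 118 in OG CD44+ libraries. Red cell and platelet markers gave 4 higher and 1 lower of 5 (median 1.21), and of the 3 basal markers tested Krt17 alone was called, with the defining genes Krt5 and Trp63 too low to test. For members changed at least 2-fold, the median position of R26 CD44+ cells was 0.67 for club, 0.99 for fibroblast and 0.78 for lymphocyte and plasma cell markers, and that of OG CD44- cells 0.03, 0.65 and 0.40.

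Summed over each list, leaving out gate antigens and genes that the AT2 or transitional lists also hold, fibroblast and mural markers were at 884 to 959 CPM in R26 CD44- and 4186 to 6423 in OG CD44+ libraries, with OG animal 3 highest and the other 3 at 4186 to 4370. Lymphocyte and plasma cell markers were at 20.3 to 39.7 CPM in R26 CD44- and 1424 to 4016 in OG CD44+, again with OG animal 3 highest. Club markers were at 594 to 1241 and 2131 to 2850 CPM, and ciliated markers at 324 to 374 and 776 to 966. Macrophage markers were at 77.4 to 86.7 CPM in R26 CD44- and 131 to 151 in OG CD44+ libraries, and endothelial markers at 139 to 164 and 122 to 138. Both middle groups were above the ends for endothelial markers, at 217 to 243 in R26 CD44+ and 197 to 206 in OG CD44- libraries. For macrophage markers they were at 110 to 130 and 150 to 155. R26 CD44+ libraries were within or near the OG CD44+ range for club (1934 to 3504) and plasma cell (1586 to 3829) markers, while OG CD44- libraries stayed low for both, at 715 to 846 and 78.8 to 149. Fibroblast and mural markers did not split by sort in this way: R26 CD44+ libraries, at 2071 to 3446 CPM, overlapped OG CD44- libraries, at 2465 to 2502, and both were below OG CD44+.

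The collagen gene Col1a1 was at 20.9 to 28.7 CPM in R26 CD44- and 569 to 912 in OG CD44+ libraries (4.78 ± 0.27), and the fibroblast receptor gene Pdgfra at 11.3 to 15.3 and 80.4 to 168 (2.88 ± 0.33). Jchain, which joins antibody chains in plasma cells, was at 0.6459, 1.382, 1.499 and 2.011 CPM in R26 CD44-, 164, 146, 289.8 and 212 in R26 CD44+, 8.52, 8.47, 8.36 and 15.2 in OG CD44- and 152, 149, 148 and 402 in OG CD44+ libraries. Both CD44+ sorts were high and both CD44- sorts low, and the immunoglobulin constant genes Igha and Igkc, which share sequence with other family members, followed it with changes of 6.84 ± 0.57 and 6.99 ± 0.58. The club gene Scgb1a1 was at 356 to 823 and 1289 to 1848 CPM (1.42 ± 0.25) and the ciliated cell regulator Foxj1 at 9.74 to 16.7 and 105 to 137 (3.27 ± 0.28). The defining macrophage gene Adgre1 was near 0, at 0 to 0.129 CPM in R26 CD44- and 0.697 to 1.31 in OG CD44+ libraries. The macrophage adaptor Tyrobp had 0 counts over R26 CD44- and 96 over OG CD44+ libraries, at least 34.8-fold higher against 3 counts over the group.

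**Figure D4:**
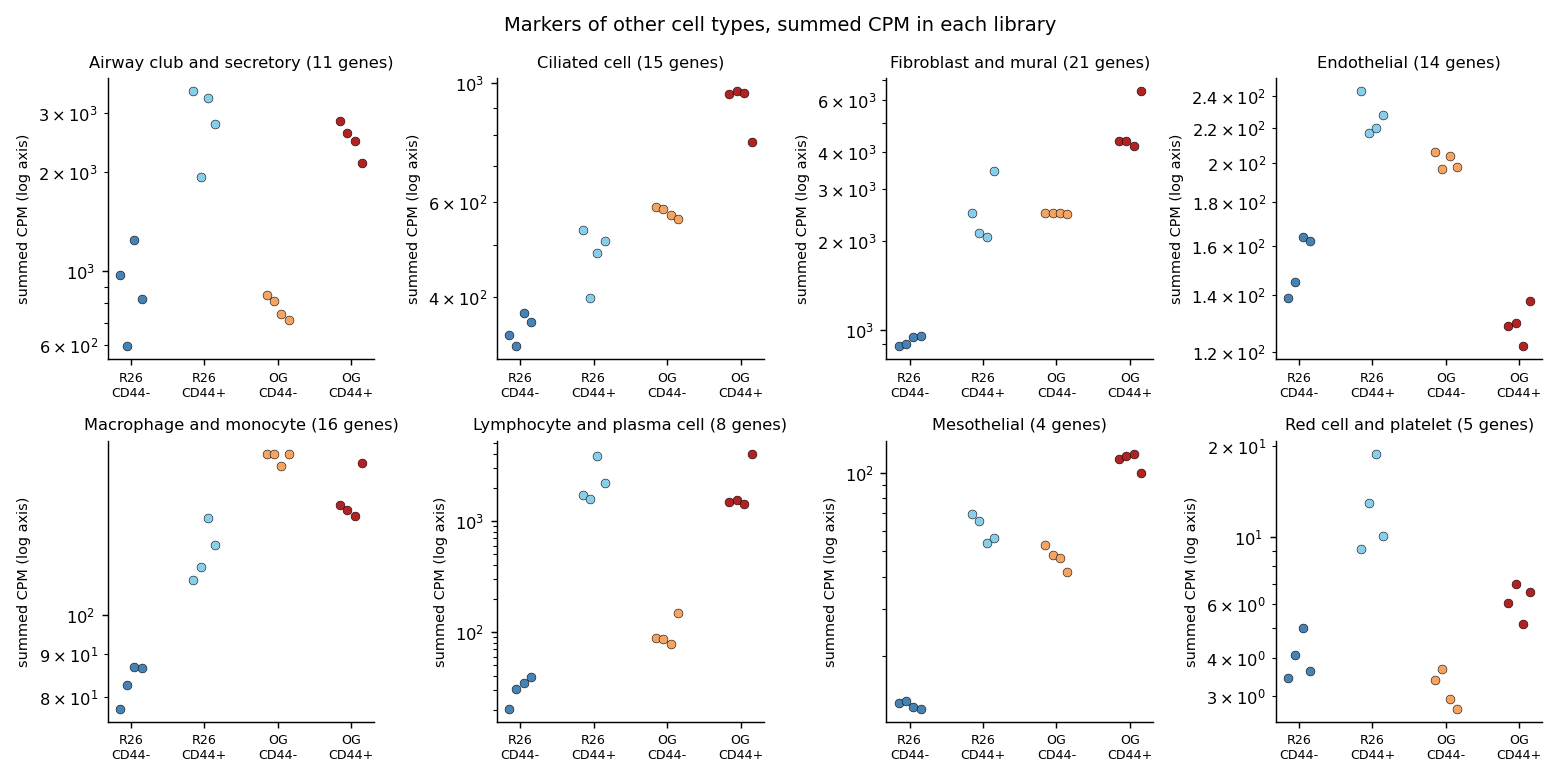
Summed CPM of markers of 8 other cell types in each library, on log axes, with gate antigens and genes shared with the AT2 and transitional lists left out. Plasma cell and club markers are high in both CD44+ sorts, and OG animal 3 CD44+ is the highest OG CD44+ library for fibroblast and plasma cell markers.

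The 12 largest increases came from genes whose 8 end libraries did not overlap and whose mean log2 CPM reached 4. Mt3, a metal-binding metallothionein (chr8:94152607-94154148), had 0 counts over R26 CD44- and 1026 over OG CD44+ libraries, at least 367-fold higher, and 2767 over OG CD44- libraries. Uchl1, a neuronal ubiquitin hydrolase (chr5:66676121-66687234), was at 0.452, 0.263, 0.583 and 0.161 CPM in R26 CD44- and 156, 144, 139 and 132 in OG CD44+ libraries (log2 fold change 8.59 ± 0.14, adjusted p = 5.3e-24), and higher again in OG CD44-, at 201 to 212. Cd177, known from neutrophils, rose by 8.62 ± 0.33 and the potassium channel gene Kcnn3 by 7.43 ± 0.15. The rest were Slc7a11, Cldn4, Itga2, Spp1, Jchain, Igkc, Igha and the antibody segment Ighv1-9 (7.45 ± 1.66), whose libraries ranged over 13.0 to 68.7 CPM in OG CD44+ and 3.86 to 88.0 in R26 CD44+. Ighv1-9 was not called with the animal as a block (adjusted p = 0.182) or by limma voom with quality weights (0.0748).

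The largest decreases were led by Tmem132d (-6.70 ± 0.15), a membrane protein gene, and Lyz1. Acoxl, an acyl-CoA oxidase-like gene (chr2:127838797-128126252), was at 523, 439.9, 556 and 466 CPM in R26 CD44- and 13.6, 12.1, 13.8 and 14.1 in OG CD44+ libraries (log2 fold change -5.21 ± 0.18, adjusted p = 5.97e-12), with 72.6 to 88.0 in OG CD44-. The others were the brain proteoglycan Bcan (-5.17), Bex2 (-4.89), the aminopeptidase Anpep (-4.80), neuritin Nrn1 (-4.59), the coagulation protein gene Proz (-4.55), Lyz2, the monoglyceride lipase Mgll (-4.47), Baiap3 (-4.36) and Rerg (-4.34). In all 12 of these genes R26 CD44+ cells stayed at positions of -0.06 to 0.14 and OG CD44- cells at 0.49 to 0.88.

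AP-1, the Fos and Jun factor that drives many wound and injury genes, binds TGANTCA, which reads the same on both strands. The element was searched in the same windows of 250 bases. Those of Cldn4 (chr5:134946935-134947184, minus strand), F3 (chr3:121723287-121723536, plus strand) and Plaur (chr7:24462233-24462482, plus strand) are shown as injury genes that rose, chosen after their values were seen, with matches in capitals. The start used for Plaur lies inside the annotated span of the gene.

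Cldn4: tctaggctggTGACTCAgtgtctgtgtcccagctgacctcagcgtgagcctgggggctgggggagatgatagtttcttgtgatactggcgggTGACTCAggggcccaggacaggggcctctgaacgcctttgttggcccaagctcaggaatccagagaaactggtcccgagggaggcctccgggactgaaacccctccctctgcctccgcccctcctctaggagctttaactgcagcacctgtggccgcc
F3: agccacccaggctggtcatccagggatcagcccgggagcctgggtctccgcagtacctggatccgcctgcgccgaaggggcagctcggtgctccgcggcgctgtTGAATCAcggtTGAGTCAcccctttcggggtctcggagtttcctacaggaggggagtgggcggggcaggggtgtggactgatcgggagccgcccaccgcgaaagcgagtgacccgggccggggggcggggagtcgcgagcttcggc
Plaur: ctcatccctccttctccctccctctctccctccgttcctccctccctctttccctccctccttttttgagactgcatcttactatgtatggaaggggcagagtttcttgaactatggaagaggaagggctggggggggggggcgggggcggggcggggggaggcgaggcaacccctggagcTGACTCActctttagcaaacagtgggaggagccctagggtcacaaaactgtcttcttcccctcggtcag

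Cldn4 held 2 matches, beginning 240 and 158 bases before the start, F3 2 at 146 and 135 bases, and Plaur 1 at 69 bases. The letters were found in 6.75% of all windows and in 5.90% of the 11498 tested genes with a window. They were in 9.65% of 2196 genes at least 2-fold higher and in 6.19% of 1518 genes at least 2-fold lower, shares given as a description without a test.

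The position of the middle groups differed between genes that rose and genes that fell. For the 2080 genes at least 2-fold lower in OG CD44+, the median position was 0.77 in OG CD44- cells (quartiles 0.61 and 0.98) and 0.10 in R26 CD44+ cells (-0.03 and 0.21). For the 3108 genes at least 2-fold higher, the medians were 0.60 (0.38 and 0.83) and 0.57 (0.26 and 0.98). So among falling genes R26 CD44+ cells were at or near the R26 CD44- end, and among rising genes both middle groups were spread along the span. These positions share the end libraries with the choice of genes and are a description.

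The direct test between OG CD44- and R26 CD44+ cells, which compares none of the end libraries although they enter its scaling and spread and come from the same animals, called 11141 of 15516 genes (71.8%), 5466 (35.2%) higher and 5675 (36.6%) lower in OG CD44-. Fitted on the 8 middle libraries alone it called 5032 higher and 5146 lower, and with R26 CD44- animal 8 as the TMM reference 4600 higher and 6489 lower. Among the 2080 falling genes, OG CD44- cells were called further in the direction of OG CD44+ at 1882 (90.5%), R26 CD44+ cells at 1 and neither at 197. Such a call takes the sign of the difference between the middle groups and measures no distance to the end. It therefore includes groups that lie beyond the OG CD44+ end. Among the 3108 rising genes the split was 1141 (36.7%) for OG CD44- and 1170 (37.6%) for R26 CD44+, with 797 not called. That near balance among rising genes did not keep its order: with at least 50 counts in 4 libraries the shares were 47.5% and 33.1%.

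Against the ends themselves, OG CD44- cells were called between them at 1466 rising genes (47.2%) and 884 falling genes (42.5%), and were not told from OG CD44+ at 627 (20.2%) and 1013 (48.7%). R26 CD44+ cells were called between the ends at 1101 rising (35.4%) and 627 falling genes (30.1%), and were not told from R26 CD44- at 774 (24.9%) and 1303 (62.6%). OG CD44- cells went beyond the OG CD44+ end at 227 rising and 81 falling genes, and R26 CD44+ cells at 284 rising and 0 falling genes. Across all 15516 genes, OG CD44- differed from R26 CD44- at 69.0%, R26 CD44+ from R26 CD44- at 37.1%, OG CD44+ from OG CD44- at 50.4% and OG CD44+ from R26 CD44+ at 69.1%. The 37.1% and 50.4% compare sorts that share animal numbers, and the fit did not use that pairing.

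**Figure D5:**
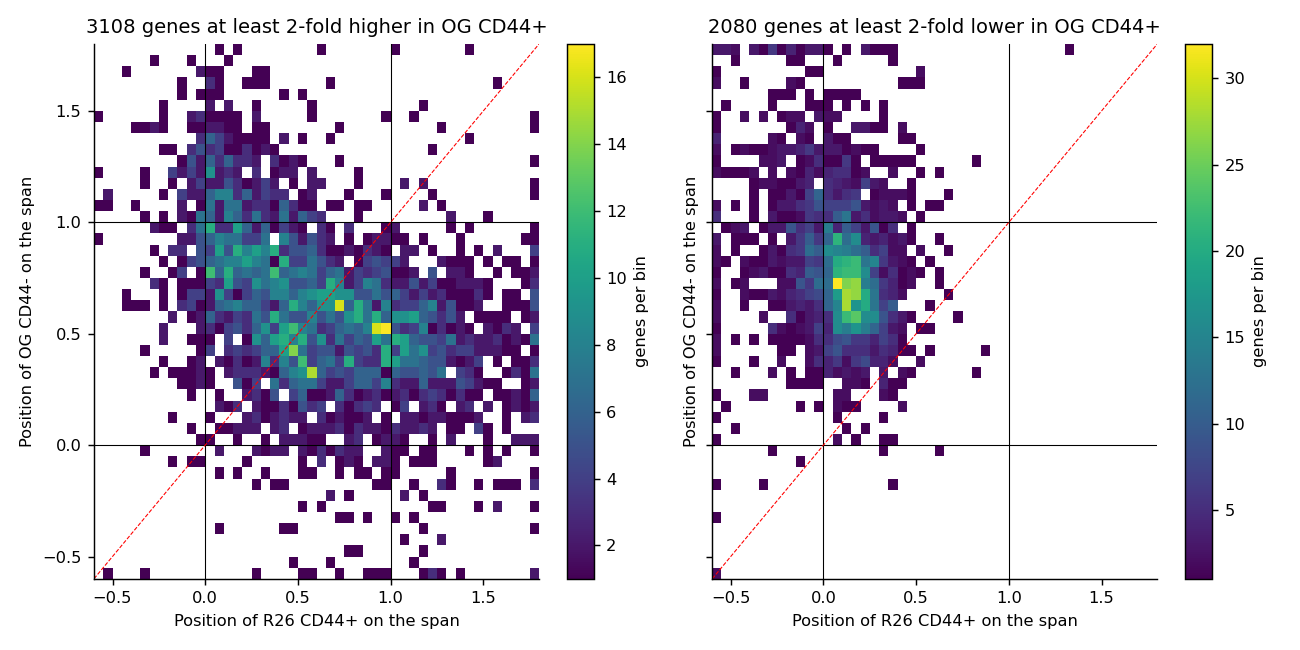
Position of OG CD44- cells against that of R26 CD44+ cells for the 3108 genes at least 2-fold higher (left) and the 2080 at least 2-fold lower (right) in OG CD44+, as genes per bin, with 0 the R26 CD44- mean and 1 the OG CD44+ mean; genes outside the axes are drawn at their edges and the dashed line marks equal positions. Falling genes gather near 0.10 on the R26 CD44+ axis and 0.77 on the OG CD44- axis, while rising genes spread to both sides of the dashed line.

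The corners of this map were unevenly filled. OG CD44- above 0.75 with R26 CD44+ below 0.25 described 1454 of the 5188 genes (28.0%), 516 rising and 938 falling. The reverse, R26 CD44+ above 0.75 with OG CD44- below 0.25, described 235 genes (4.53%), all rising. Both middle groups were below 0.25 at 68 genes (1.31%) and above 0.75 at 143 (2.76%). The genes named next are among those with the largest change in their pattern.

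Igfbp7, a secreted binding protein of insulin-like growth factors, stood apart in OG CD44+ cells. It was at 69.8, 81.5, 84.4 and 89.2 CPM in R26 CD44-, 88.5 to 125 in R26 CD44+ and 82.0 to 89.1 in OG CD44- libraries. OG CD44+ libraries were at 203, 214, 203 and 229.7 (log2 fold change between the ends 1.39 ± 0.09, adjusted p = 2.24e-11). All 4 OG CD44+ libraries stood above the other 12. The cystathionine lyase gene Cth (-1.82 ± 0.12) and the noncoding gene Panct2 (-1.51 ± 0.16) had that pattern downward. Slc43a3, a purine base carrier, was at 5.04, 5.66, 6.33 and 5.95 CPM in R26 CD44- libraries, 27.7 to 49.7 in R26 CD44+, 27.7 to 36.8 in OG CD44- and 43.4 to 52.0 in OG CD44+. Here the R26 CD44- libraries stood below the other 12, with both middle groups above position 0.75, as they were for Sema3e (2.89 ± 0.10), a semaphorin, Ptpre (2.30 ± 0.13), a phosphatase, and Mcc (2.30 ± 0.10).

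Gabrp, a GABA receptor subunit found in epithelia, followed the CD44 sort. It was at 7.30, 4.47, 8.99 and 6.28 CPM in R26 CD44-, 6.11 to 7.27 in OG CD44-, 24.6 to 29.8 in R26 CD44+ and 21.84, 25.01, 26.42 and 26.3 in OG CD44+ libraries (log2 fold change between the ends 1.89 ± 0.13, adjusted p = 5.8e-12). The 2 CD44- groups overlapped and the 2 CD44+ groups overlapped. The secretory gene Scgb3a1 (2.73 ± 0.17) and Mamdc2 (2.20 ± 0.33) shared the pattern. Mt3, Uchl1, Kcnn3 and Kif1a (6.63 ± 0.11), a neuronal motor protein gene, had the prefix pattern, high in both OG groups.

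Other genes lay outside the span. Hhip, an inhibitor of hedgehog ligands, was at 1.16, 1.45, 2.33 and 2.09 CPM in R26 CD44- and 11.2, 9.30, 11.9 and 23.2 in OG CD44+ libraries (log2 fold change 3.01 ± 0.35, adjusted p = 2.32e-06), and R26 CD44+ libraries were above both, at 70.0, 50.4, 65.2 and 46.9. Dcn, the fibroblast proteoglycan decorin, went the same way, at 7.16 to 8.75 CPM in R26 CD44-, 30.3 to 42.8 in OG CD44+ and 69.6 to 95.5 in R26 CD44+ libraries. Mfsd2a, a carrier of lipids that AT2 cells take up, was at 122, 147, 114 and 135 CPM in R26 CD44- and 29.0, 30.3, 24.5 and 25.4 in OG CD44+ libraries, and R26 CD44+ libraries, at 145, 152, 149 and 145, were called beyond the R26 CD44- end. The membrane skeleton gene Epb41l2 (1.30 ± 0.13) was lower in OG CD44- cells (10.6 to 12.5 CPM) than in R26 CD44- cells (12.9 to 17.0).

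An ordered level across all 4 groups was more frequent among falling than among rising genes. Group means stood in the order R26 CD44-, R26 CD44+, OG CD44-, OG CD44+ at 1203 of the 2080 falling genes (57.8%) and at 927 of the 3108 rising genes (29.8%). All 16 libraries formed 4 blocks without overlap in that order at 347 falling genes (16.7%, against 2.87% of all genes tested falling that way) and 218 rising genes (7.01%, against 1.51%). With the middle groups exchanged, means were in order at 35 falling (1.68%) and 834 rising genes (26.8%), and blocks at 0 falling (against 0.0387% of all genes tested) and 40 rising genes (1.29%, against 0.264%). The choice of genes that differ between the ends favours such blocks, so these shares describe the pattern and are not a test of it.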

How the data were processed

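Counts per gene were deposited as 1 whole-number table of 16 libraries and were used as deposited. Alignment with Bowtie2 to mm10 is named per the submitters' processing notes, while the counting program, the annotation and the strand setting are not given in the sources used here, so reads of overlapping genes cannot be told apart. Of 27179 Entrez identifiers in the table, 25293 (93.1%) were paired with a symbol.

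Libraries were grouped by their column names. Genes passing edgeR's filterByExpr by group (15516) were scaled by TMM and tested with edgeR 4.0.16 (R 4.3.3, robust quasi-likelihood F test, 4 group means over 16 libraries). Benjamini-Hochberg adjustment ran over all 15516 genes, and every adjusted p in the text comes from this edgeR fit unless another setting is named. SE is the absolute log2 fold change over the square root of F. Tested on simulated data, the fit missed the recovery bound first set for 2-fold changes over all changed genes, and met it after the bound was limited to genes of at least 1 CPM. The simulated data changed few genes, equally up and down, so the scaling was not tested where most genes change. Replicates of a group correlated at 0.979 to 0.997 (Spearman), and all pairs differed by more than sampling noise (chi-square over degrees of freedom 1.66 to 18.7), so each library counted once.

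Named genes were Sftpc, the gate antigens, the 12 largest increases and decreases under the limits given, up to 4 members per list by adjusted p with members called against the list's direction, the largest changes of each position pattern, and defining cell type markers. Pgc, Fn1, Ccn2, Xbp1, Sdf2l1, Psat1, Ifit2, Hspa5, Itgb6, Insig1, Areg, Bax, Saa3, Mki67, Nt5e and Eda2r were added after their values were seen. The libraries compared and the lists were chosen with earlier results of these data known. Alternatives were DESeq2 1.42.0 and its size factors, limma 3.58.1 voom, other filters, scalings and fold minimums, only the 8 end libraries, each library left out, and the animal as a random block. Some genes that the rule names are not reported here.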

Additional observations from a re-analysis of the deposited data

Results flagged for a closer look

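Within groups of 4, 19 of 159 gene and group combinations held 1 library set apart from the other 3 by Dixon's test (its gap to the nearest divided by the range, at the 95% level), and chance flags about 1 in 20 groups. Library OG animal 3 CD44+ was the one set apart in 6 of them. It was highest for Jchain (402 CPM, the others 148 to 152), Ptprc (8.63, the others 3.84 to 4.15), Pecam1 (7.89, the others 1.78 to 2.66), Axl (45.5, the others 36.6 to 37.5) and Il33 (134, the others 111 to 112). It was lowest for Slc7a11 (315, the others 365 to 372). The other library of that animal, OG animal 3 CD44-, was highest for Jchain (15.2, the others 8.35 to 8.52) and lowest for Errfi1 (461, the others 518 to 528) and Acoxl (72.6, the others 85.4 to 88.0).

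Among R26 CD44+ libraries, animal 2 was highest for Sftpc (72715 CPM, the others 47309 to 48837), Lyz2 (23629, the others 16357 to 16964) and Ptprc (15.4, the others 4.76 to 6.50) and lowest for Pdgfb (25.9, the others 34.1 to 35.3). Animal 8 was lowest for the class II gene H2-Ab1 (474, the others 582 to 593), and animal 1 alone held counts of Mt3 (0.187 CPM, the others 0). Single libraries stood apart elsewhere for Axl in R26 animal 2 CD44- (4.08, the others 3.36 to 3.42), Ereg in OG animal 5 CD44+ (44.0, the others 36.3 to 37.3), Trib3 in OG animal 5 CD44- (117, the others 104 to 106) and Ptprc in OG animal 6 CD44- (0.717, the others 1.33 to 1.42).

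For 5 gate antigens the step from CD44- to CD44+ differed between OG and R26 cells by the interaction term in edgeR (adjusted p 2.17e-05 to 0.0153). The term does not use the animal numbers shared by both sorts, and it was not refitted with the animal as a block. The epithelial antigen gene Epcam rose by 0.39 on the log2 scale in OG and changed by -0.05 in R26 cells, a difference of 0.44. Itgb4 rose by 1.93 and 1.05, a difference of 0.89. Cd200 changed by -0.65 and -0.40, a difference of -0.25. Ptprc rose by 2.12 in OG and 5.50 in R26 cells (difference -3.39), and Pecam1 changed by -0.42 and 2.23 (difference -2.65).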

How the results depend on the processing

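Of the genes called at least 2-fold between the ends and tested under each alternative, 0 changed direction. They were chosen for a large change in the same counts, so a reversal was unlikely under any setting and its absence is no separate support. Of the 5188, 4820 were called again with only the 8 end libraries fitted (4825 tested), 3497 with a filter of at least 50 counts in 4 libraries (3497 tested) and 5006 to 5188 under each other setting. That count filter left 2010 genes at least 2-fold higher and 665 rising genes at which R26 CD44+ cells were called further in the direction of OG CD44+. Against a 1.5-fold minimum, 3596 genes were higher and 2604 lower between the ends, and 1832 higher and 3157 lower in OG CD44- than in R26 CD44+ cells. With at least a 4-fold change between the ends, OG CD44- cells were called further in that direction at 513 rising and 622 falling genes. R26 CD44+ cells were so called at 736 rising genes. Among falling genes OG CD44- cells were between the ends at 295 and R26 CD44+ cells at 197. Fewer genes enter by construction. With the animal as a replicate block (limma voom, consensus correlation 0.182), 6389 genes were higher and 5267 lower; the ends share no animal, so the block pairs only the sorts of an animal. The block ended the calls of the antibody genes Ighv1-9 (log2 fold change 8.14, adjusted p = 0.182) and Ighg2b (6.62, 0.128), and voom with quality weights that of Ighv1-9 (7.44, 0.0748). The median over all genes ranged from 0.01 to 0.11 over all settings. Pecam1 ranged from -0.87 (without OG animal 3 CD44+, where it was called) to 0.09 with each library left out in turn, Pgc from -0.34 to 0.012 (and 0.065 by voom with quality weights, 0.010 without both libraries of OG animal 3), and the mesothelial median from -0.46 to 0.057; the cause was not tested. Genes with few counts are limited by depth: 3 counts are at most 0.333 CPM.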
